A study of Moricandia moricandioides and Moricandia arvensis and Moricandia suffruticosa with 11 samples.

Results

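Mature leaves of M. arvensis, a C3–C4 intermediate, were compared with mature leaves of its C3 relative M. moricandioides, to describe which functions were higher or lower in the intermediate. The comparison takes the libraries of 4 M. arvensis plants (plants 9, 12, 13 and 15, written Ma9 to Ma15) and 4 M. moricandioides plants (plants 6, 8, 12 and 15, written Mm6 to Mm15), chosen by their labels, which is 8 of the 11 libraries of the series. Unless the species are named otherwise, values of M. moricandioides come before those of M. arvensis. Within each species values follow that order of plants. The other 3 libraries are of M. suffruticosa, a C3–C4 intermediate as well, and they entered the fit and are shown where their level helps to place a value. The labels name no treatment and no altered gene. All plants grew in a climate chamber with 12 h of light, 23 °C by day and 20 °C by night, at about 200 µmol of photons per m2 and s. Leaves were frozen about 2 h after the light came on, before the plants had begun to flower. M. arvensis is represented by line MOR1 alone, and each species by plants from 1 seed source, so a difference between species cannot be told apart from a difference between these lines.

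In C3 leaves the mesophyll fixes CO2 and also runs photorespiration, the salvage pathway that recycles the product of the oxygenase reaction of Rubisco and releases CO2 from glycine in the mitochondria. In C3–C4 intermediates the P-protein of the glycine decarboxylase complex is largely confined to the bundle sheath, the cell layer around the veins. Glycine made in the mesophyll therefore moves there, and the CO2 it yields is partly caught again. Amino groups and carbon skeletons have to return, which is why enzymes of organic acid and amino acid exchange, some of them shared with the C4 cycle, are looked at in such species. M. arvensis belongs to the Brassicaceae, a family that makes glucosinolates, sulfur-rich defence compounds which the enzyme myrosinase splits when tissue is damaged.

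Reads of 100 bp had been assigned to Arabidopsis coding sequences, so each transcript carries the name of the Arabidopsis gene it matched best, and near-identical copies of a gene can exchange reads. At least 1 read was found in the 11 libraries for 18995 of 33602 gene models, and 15570 had enough reads to be tested. Values are rpm, the reads of a transcript scaled to 1000000 counted reads of its library. They are not divided by length, so a level is compared between plants and not between genes. Errors beside a log2 fold change, for 4 against 4 plants, are standard errors derived from the quasi-likelihood test of edgeR. That test estimates the spread over all 11 libraries and shares it in part across transcripts. In the words used here, a transcript rose or fell when its counts in M. arvensis were above or below those in M. moricandioides. The limit for this was an adjusted p of at most 0.01 in that test. By this measure 2840 transcripts rose, which is 18.2% of those tested, and 2604 fell, which is 16.7%, so that 35.0% were called in either direction. Those shares are the background against which each group below is read. Among the called transcripts, 3731 (68.5%) differed by at least 1 on the log2 scale, with a median of 1.31 for those that rose and -1.37 for those that fell. All 4 M. arvensis plants lay above all 4 M. moricandioides plants for 23.3% of transcripts and below them for 16.8%, and 4875 called transcripts (89.5%) were of such a kind. Calls were found in every range of abundance, less often below 1 rpm, where 52 of 607 rose (8.57%) and 32 fell (5.27%). Among the 133 transcripts above 1000 rpm 26 rose and 19 fell, and among the 8056 between 10 and 100 rpm 1626 rose and 1442 fell.

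The libraries held 11216204 to 13422102 counted reads in M. arvensis and 12259898 to 14865167 in M. moricandioides. Ma13 and Ma15 lay closer together than any other pair within these species (0.411% of transcripts differed by more than 2-fold, against 3.74% to 16.3%), although their counts still differed by more than sampling noise, and they were counted as separate plants. Ma9 lay farthest from the others of its species and had the lowest scaling factor, 0.834 against 1.041 to 1.166. Where leaving out a plant ends a call, or moves a count by more than 1.5-fold, that plant is named. Scaling by library totals moved the median of all transcripts from 0.02 to 0.16 on the log2 scale. Markers of other cells moved as well: of 20 tested transcripts of vein and bundle sheath 1 rose and 7 fell, of 15 of guard cells 5 rose and 2 fell, and of 17 of dividing cells none rose and 4 fell. Their summed levels were 1052 to 1487, 122 to 161 and 70.6 to 163 rpm in M. moricandioides and 1838 to 2282, 149 to 214 and 65.7 to 89.4 rpm in M. arvensis. PP2-A1 of the phloem alone held 63.4 to 194 rpm of the vein sums in M. moricandioides and 910.4 to 1325 rpm of those in M. arvensis. Of the same lists, 3, 2 and 5 of their 23, 19 and 22 listed genes had no read in any library. Without single plants the guard cell counts became 3 higher (Mm8), 1 lower (Mm6, Mm8, Mm12 or Ma12) or none lower (Ma9 or Ma15), and the dividing cell count became 2 lower (Mm8, Mm15, Ma12 or Ma15), or 1 lower and 1 higher (Ma13). The count of vein markers that rose was 2 without Ma9. Of 11 markers of flowers, seeds and root hairs 3 had enough reads to be tested and 2 rose. The tested members summed to 1.48 to 2.28 rpm in M. moricandioides and 3.83 to 9 rpm in M. arvensis. Such tissue was thus close to undetected in both species. In whole leaves fewer cells of a type and less RNA per cell cannot be told apart, and the part these markers have in the results below was not tested.

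**Figure D1:**
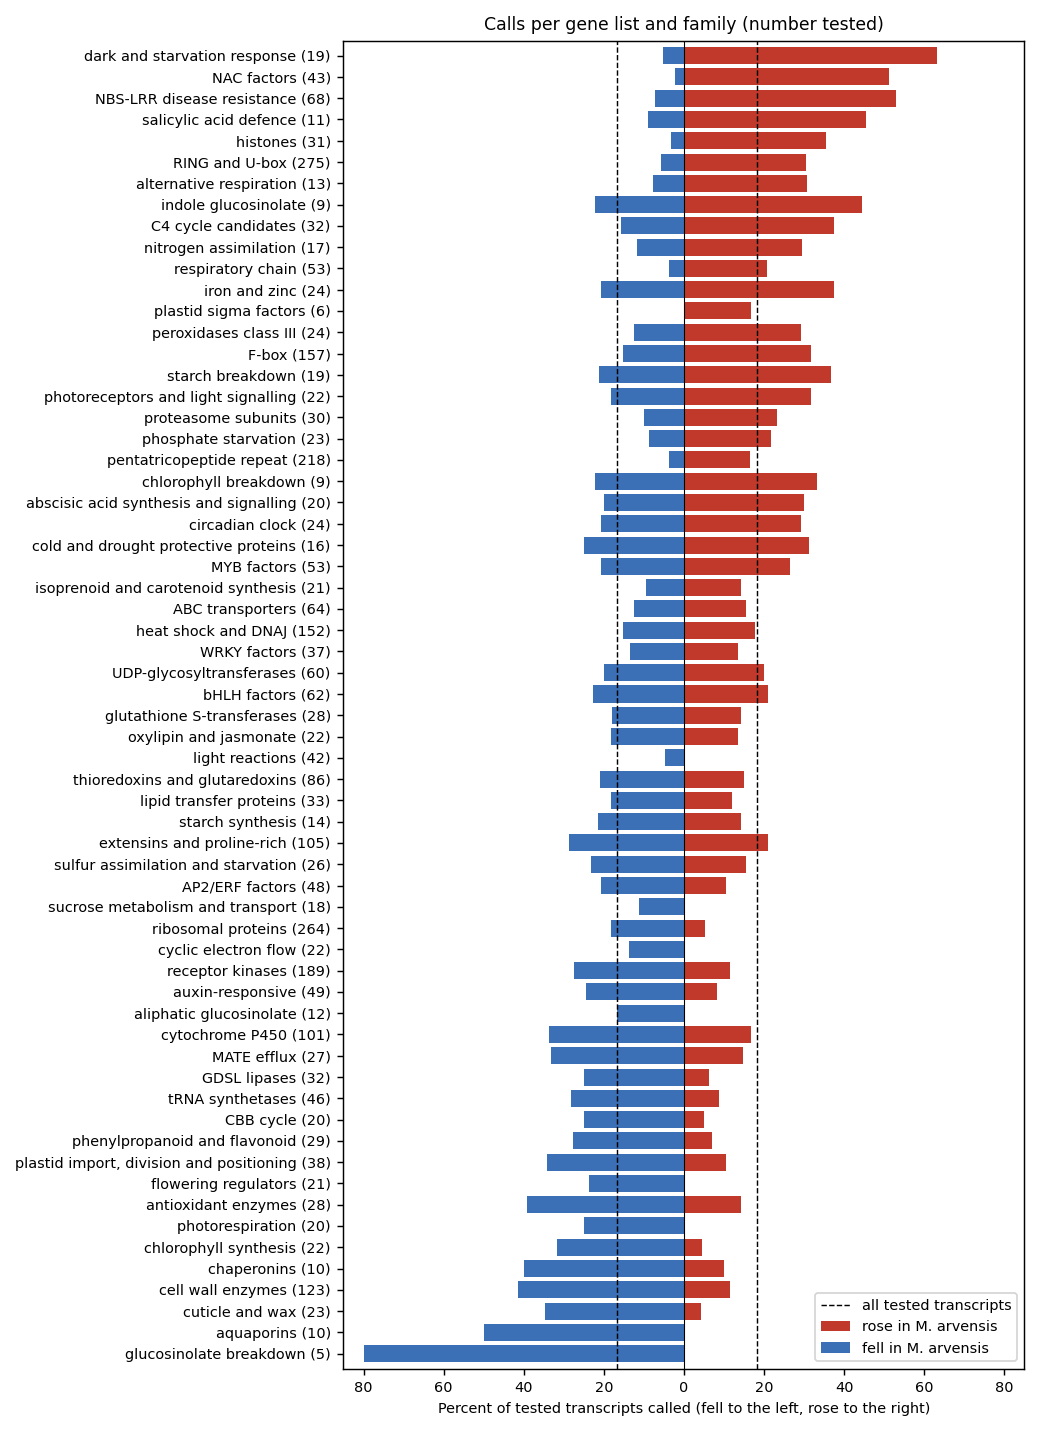
Share of the tested transcripts of each gene list and family that rose (bars to the right, percent) or fell (bars to the left, percent) in M. arvensis against M. moricandioides, with the background of 18.2% and 16.7% of all 15570 tested transcripts as dashed lines. Among the groups drawn, the dark and starvation list, NBS-LRR resistance genes and NAC factors reach farthest to the right, and enzymes of glucosinolate breakdown and aquaporins farthest to the left.

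Several enzymes that exchange carbon and amino groups between organic acids rose. Of 32 tested transcripts that take part in the C4 cycle of other species, 12 rose (37.5%) and 5 fell (15.6%), with a median of 0.44 on the log2 scale against 0.02 for all transcripts. PCK1 (AT4G37870), phosphoenolpyruvate carboxykinase, which releases CO2 from oxaloacetate, was read at 382, 252, 356 and 209 rpm in the M. moricandioides plants and at 2168, 2607, 1002 and 1037 rpm in the M. arvensis plants. All 4 M. arvensis plants lay above the others, Ma9 and Ma12 the highest, and the log2 fold change was 2.45 ± 0.38 (adjusted p = 2.6e-04). Its copy PCK2 had 1 read in the 4 M. moricandioides plants and 113 in the M. arvensis plants, a ratio of 128-fold (95% exact counting interval 22.4 to 5082); its call was lost in the pairwise fit of the 8 libraries alone. ASP3 (AT5G11520), an aspartate aminotransferase, had 24, 22.8, 20.4 and 17.4 rpm against 132, 111, 120.2 and 127 rpm in M. arvensis, where the plants agreed closely (log2 change 2.44 ± 0.16, adjusted p = 8.2e-07). PPCK1 (AT1G08650), the kinase that keeps phosphoenolpyruvate carboxylase active, had 18.9, 14.4, 21.9 and 9.42 rpm against 33.5, 27.6, 61.3 and 62.1 rpm (log2 change 1.36 ± 0.27, adjusted p = 0.0016). Its groups did not overlap, and Ma13 and Ma15 were the highest.

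Further members of that list are named because they were called, which is a choice made after their values were seen. PPC1, a phosphoenolpyruvate carboxylase, ranged from 63.6 to 97.8 rpm in M. moricandioides and from 153 to 202 rpm in M. arvensis (log2 change 0.97 ± 0.20, adjusted p = 0.0017). Other copies of this enzyme are not described here. The paper reports that the more abundant leaf copy was lower in the intermediates and only the less abundant copy higher. It found no change in the activity of the enzyme. RP1, the protein that switches pyruvate orthophosphate dikinase on and off, had 26.4 to 35.4 rpm and 53 to 107 rpm (log2 change 1.34 ± 0.16, adjusted p = 3.8e-05). NADP-ME2, a cytosolic NADP-malic enzyme, had 157 to 243 rpm and 267 to 691 rpm (log2 change 1.12 ± 0.22, adjusted p = 0.0014). In none of these 3 did the species overlap. The cytosolic aspartate aminotransferase ASP2 had a log2 fold change of 1.27 ± 0.21 and the carbonic anhydrase BCA6 of 1.1 ± 0.18. PPDK, pyruvate orthophosphate dikinase, was read at 173, 102, 177 and 67.9 rpm against 1151, 539, 248 and 239 rpm, a span of more than 4-fold within M. arvensis. Its log2 fold change of 2.09 ± 0.57 (adjusted p = 0.0088) fell to 1.18 without Ma9, and the call was lost without Mm6, Mm8, Mm12, Mm15, Ma9 or Ma12, in the pairwise fit and in limma-voom. The call of CMDH1, a cytosolic malate dehydrogenase (log2 change 0.72 ± 0.19, adjusted p = 0.0076), was lost without any plant but Ma12, in the pairwise fit and with Ma13 and Ma15 counted as 1.

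Carbonic anhydrases, which interconvert CO2 and bicarbonate, made up most of the members that fell. BCA1 (AT3G01500), the abundant chloroplast form, was read at 10116, 11597, 10276 and 11990.3 rpm in M. moricandioides and at 5841, 3033, 3646 and 3434 rpm in M. arvensis. The highest M. arvensis plant, Ma9, stood well under the lowest M. moricandioides plant (log2 change -1.52 ± 0.29, adjusted p = 0.0011). BCA5, a plastid form, had 36.9 to 44.3 rpm against 19.6 to 23.8 rpm (log2 change -0.96 ± 0.17, adjusted p = 6.8e-04), and BCA3, a cytosolic form, 257 to 302 against 143 to 212 rpm (log2 change -0.83 ± 0.18, adjusted p = 0.0021). PDNAD-MDH, the plastid NAD-dependent malate dehydrogenase, had 33.4 to 49.9 rpm against 11.1 to 13.5 rpm (log2 change -1.80 ± 0.17, adjusted p = 8.1e-06), and ALAAT1, an alanine aminotransferase, 79.7 to 137 rpm against 40 to 67.2 rpm (log2 change -1.02 ± 0.16, adjusted p = 3.4e-04). Without Ma9, 8 members fell in place of 5.

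The photorespiratory pathway itself held 20 tested transcripts, none of which rose and 5 of which fell (25%), with a median of 0.12. Its summed read share was nevertheless higher in all 4 M. arvensis plants, at 26527 to 35636 rpm against 24209.8 to 25733 rpm, since the sum follows its most abundant members. SHM1 and AGT1, both of large read share, did not pass the test. SHM1, the mitochondrial serine hydroxymethyltransferase that works beside glycine decarboxylase, had 3871, 3682, 3533 and 3793 rpm in M. moricandioides and 7105, 6396, 5319 and 6081 rpm in M. arvensis. All M. arvensis plants lay above the others, and the adjusted p of 0.029 (0.65 ± 0.22) missed the limit, which it passed with library totals and in DESeq2. AGT1, the peroxisomal aminotransferase that makes glycine from glyoxylate, had 2106 to 2548 rpm against 2369 to 4110.3 rpm (log2 change 0.30 ± 0.27, adjusted p = 0.39). Of the glycine decarboxylase enzymes, the H-protein GLDH2 had 10.3 to 15.5 rpm against 7.93 to 15.6 rpm (adjusted p = 0.62), and MTLPD1, a mitochondrial lipoamide dehydrogenase which serves as the L-protein, 517 to 654 against 429 to 805 rpm (adjusted p = 0.87). The P-protein was read under the gene model of GLDP2 alone, since that of its copy GLDP1 had no read in any library. That model does not identify the Moricandia copy, because the authors matched reads to a minimal set of Arabidopsis sequences. In the paper's own assemblies of Moricandia leaf transcripts the P-protein resembled GLDP1 only. The paper proposes that the GLDP2-like copy was lost in the group that holds Moricandia. The P-protein read under GLDP2, the T-protein GLDT and the H-protein GLDH3 had adjusted p-values of 0.88, 0.2 and 0.7. DIT2.2, a homologue of the plastid carrier of glutamate and malate, fell, with 167 to 210.2 rpm against 111 to 116 rpm (log2 change -0.79 ± 0.13, adjusted p = 4.6e-04).

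Nitrogen assimilation, which takes back the ammonia that photorespiration sets free, had 17 tested transcripts, of which 5 rose (29.4%) and 2 fell (11.8%). GDH2 (AT5G07440), a subunit of glutamate dehydrogenase, was read at 7.71, 8.08, 7.17 and 7 rpm against 11.9, 16.8, 19.4 and 22.1 rpm in M. arvensis (log2 change 1.08 ± 0.13, adjusted p = 5.5e-05). NRT1.1, the nitrate transporter and sensor, had 34, 29.5, 25.8 and 18.7 rpm against 42.7, 55.6, 72.7 and 74.3 rpm (log2 change 1.04 ± 0.16, adjusted p = 3.0e-04), and GLN1.5, a cytosolic glutamine synthetase, 10.1 to 20.1 rpm against 23.6 to 51.2 rpm (log2 change 1.14 ± 0.22, adjusted p = 0.0011). The species did not overlap in any of them, and Ma13 and Ma15 were the highest plants each time. NLP7, a regulator of the nitrate response, had a log2 fold change of 0.94 ± 0.18 (adjusted p = 9.6e-04). Asparagine synthetases went opposite ways. ASN3 had 204, 228, 78.7 and 127 rpm against 35.4, 34.7, 45.2 and 45.8 rpm (log2 change -2.09 ± 0.26, adjusted p = 5.7e-05), while ASN1, a form induced by darkness, chosen after its values were seen, had 1.09 to 1.6 rpm against 3.76 to 10.7 rpm (log2 change 2.38 ± 0.27, adjusted p = 3.1e-05). NRT1.8, which takes nitrate out of the xylem, had 73.8, 27.2, 15.8 and 26.4 rpm in M. moricandioides and 1.25, 0.802, 1.04 and 0.603 rpm in M. arvensis (log2 change -5.34 ± 0.50, adjusted p = 7.5e-06). Plastid glutamine synthetase GS2 (2896 to 3328 against 3410.3 to 5729 rpm, adjusted p = 0.28) and glutamate synthase GLU1 (1126 to 1520.5 against 1538 to 2218 rpm, adjusted p = 0.16) did not pass the test.

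**Figure D2:**
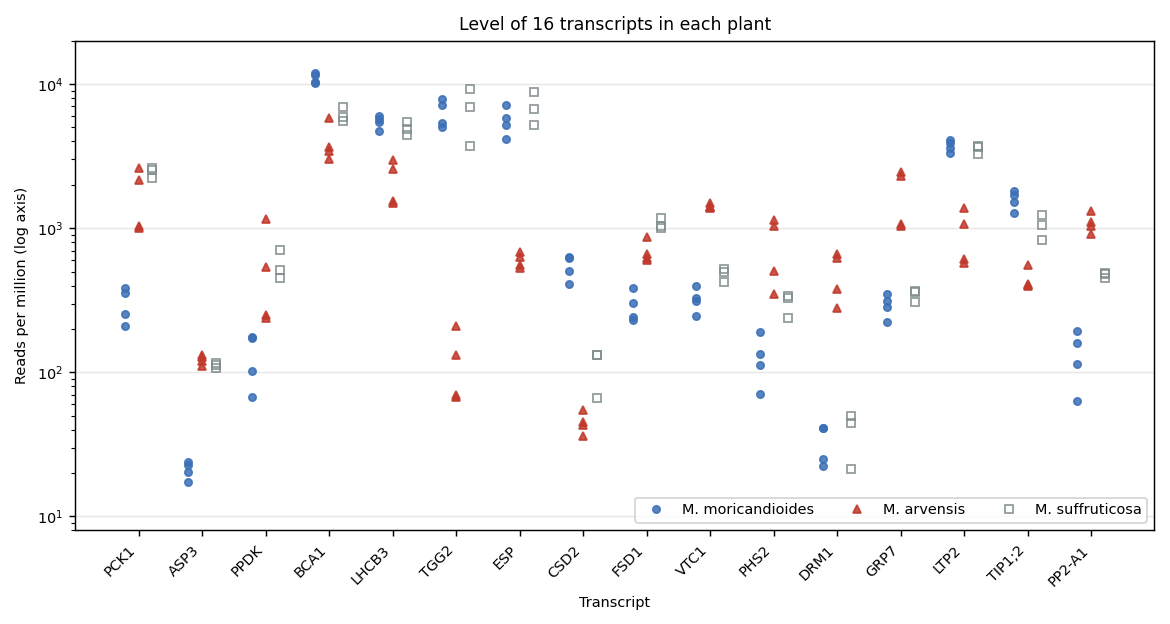
Level in rpm of 16 transcripts in each plant, on a log axis, with M. moricandioides (circles), M. arvensis (triangles) and M. suffruticosa (squares), 1 symbol per plant. TGG2, ESP, CSD2, BCA1 and TIP1;2 lie lower in every plant of M. arvensis than in any of M. moricandioides, and PCK1, ASP3, PHS2, GRP7, PP2-A1 and VTC1 higher.

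Few transcripts of the light reactions were called when all plants were used. In the light reactions, none of 42 tested transcripts rose and 2 fell (4.76%), with a median of -0.27; without Ma9 17 fell, and without Mm6, Mm15, Ma13 or Ma15 1 did. LHCB3 (AT5G54270), a light-harvesting protein of photosystem II, was read at 6016, 4757, 5423 and 5701 rpm in M. moricandioides and at 2572, 2957, 1535 and 1495 rpm in M. arvensis. The species did not overlap (log2 change -1.43 ± 0.30, adjusted p = 0.0018), while LHCB1.2, which takes the largest read share of the list, overlapped at 51956 to 66296 and 41119 to 60679 rpm (adjusted p = 0.22). In the Calvin–Benson–Bassham cycle, 1 of 20 rose and 5 fell (25%), with a median of -0.48. The summed level of the list was 96001 to 111589 rpm in M. moricandioides and 71121 to 97006 rpm in M. arvensis, where Ma9 had the highest value and the next was 72309 rpm in Ma12. The count of lower transcripts became 11 without Ma9, 2 without Mm15, Ma13 or Ma15 and 1 without Ma12. CP12-2, a small protein that holds 2 enzymes of the cycle inactive in the dark, was the member that rose, with 565, 598, 503 and 560.0 rpm against 2703, 1623, 1834 and 1617 rpm (log2 change 1.74 ± 0.27, adjusted p = 2.8e-04). TPI, plastid triosephosphate isomerase, had 482, 559, 511 and 505 rpm against 266, 249, 282 and 285 rpm (log2 change -1.04 ± 0.15, adjusted p = 1.6e-04). RBCS1A, a small subunit of Rubisco with near copies, had 15067 to 20053 rpm against 6949 to 10465 rpm (log2 change -1.19 ± 0.26, adjusted p = 0.0026, lost without Ma12), and Rubisco activase RCA did not differ past the limit (16711 to 18325 against 16985 to 22893 rpm, adjusted p = 0.95).

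Transcripts that serve to build chloroplasts fell at a share above the background. Chlorophyll synthesis had 7 lower and 1 higher of 22 tested (31.8% lower), with none higher without Mm6, Mm8, Mm15, Ma9 or Ma12 and 13 lower without Ma9. HEME1, uroporphyrinogen decarboxylase, had 195, 196, 229 and 232 rpm against 125, 94.2, 109 and 107 rpm (log2 change -1.07 ± 0.20, adjusted p = 0.001), and PORB, a light-dependent protochlorophyllide oxidoreductase, 814 to 1027 rpm against 423 to 666 rpm (log2 change -0.89 ± 0.16, adjusted p = 7.3e-04). Among transcripts of plastid import, division and positioning 13 of 38 fell (34.2%) and 4 rose, 2 without Mm6, Mm8 or Ma9. GLK2 (AT5G44190), a transcription factor of chloroplast development, was read at 198, 168, 215 and 199 rpm in M. moricandioides and at 51.3, 63.5, 50 and 46.5 rpm in M. arvensis. Its M. arvensis plants stayed within a narrow band well under the others (log2 change -2.0 ± 0.20, adjusted p = 1.3e-05). TOC75, the protein channel of the outer envelope, had 139, 249, 165 and 152 rpm against 55.5, 61.6, 83.4 and 83 rpm (log2 change -1.44 ± 0.17, adjusted p = 3.8e-05), and TOC34, an import receptor, 10.6 to 15.4 rpm against 5.95 to 6.95 rpm (log2 change -1.17 ± 0.17, adjusted p = 1.9e-04). PDV2, which places the division ring, fell, with 57.3 to 103 rpm against 20.3 to 38.5 rpm (log2 change -1.40 ± 0.30, adjusted p = 0.0021), whereas HSP93-V, an abundant stromal chaperone, rose, with 1257 to 1505 rpm against 2196 to 3076 rpm (log2 change 0.82 ± 0.17, adjusted p = 0.0016). CPN60A1, a subunit of the chaperonin that folds Rubisco, had 564, 920.2, 578 and 689.9 rpm against 286, 289.8, 437 and 459 rpm (log2 change -1.04 ± 0.17, adjusted p = 4.3e-04). Over the whole table, 457 of 2140 tested transcripts annotated to the chloroplast fell (21.4%) and 287 rose (13.4%).

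Chlorophyll breakdown had 3 of 9 tested transcripts higher (33.3%) and 2 lower (22.2%), both shares above the background. Without Ma13 or Ma15 1 was lower. NYC1, which reduces chlorophyll b, was read at 101, 108, 105 and 83.6 rpm against 271, 246, 358 and 349.9 rpm in M. arvensis (log2 change 1.5 ± 0.14, adjusted p = 9.5e-06). HCAR, which acts after it, had 24.2, 6.69, 4.56 and 4.91 rpm against 61, 59.4, 116 and 97.8 rpm (log2 change 2.92 ± 0.47, adjusted p = 3.5e-04, and 3.79 on the log2 scale without Mm6), and PPH, pheophytinase, 58.8, 49.3, 78.4 and 36.9 rpm against 121, 161, 167 and 184 rpm (log2 change 1.36 ± 0.20, adjusted p = 1.8e-04). These are the enzymes of the route through pheophytin, and in each of them all M. arvensis plants were higher. CLH2, a chlorophyllase, fell, with 26.5 to 35.7 rpm against 7.38 to 13.5 rpm (log2 change -1.57 ± 0.26, adjusted p = 3.8e-04). In isoprenoid and carotenoid synthesis 3 of 21 rose (14.3%, under the background of 18.2%) and 2 fell (9.52%), with a median of 0.13. The 2 lower became 1 without Mm6 or Ma13 and none without Ma12 or Ma15. With library totals 8 rose and none fell. CCD4 (AT4G19170), a dioxygenase that cleaves carotenoids, took the largest read share there and had 1171, 606, 1170.0 and 723 rpm in M. moricandioides and 4259, 3822, 4015 and 4096 rpm in M. arvensis (log2 change 2.03 ± 0.26, adjusted p = 7.1e-05). The M. arvensis plants lay within a narrow range at more than 3 times any M. moricandioides value. The desaturase ZDS had 114 to 147 rpm against 212 to 249 rpm (log2 change 0.76 ± 0.14, adjusted p = 8.5e-04) and the isomerase ZISO 22.7 to 27.7 against 41.4 to 54.9 rpm (log2 change 0.79 ± 0.14, adjusted p = 8.2e-04), both steps on the way to lycopene.

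Starch-degrading enzymes moved in both directions. Of 19 tested 7 rose (36.8%) and 4 fell (21.1%). PHS2 (AT3G46970), the cytosolic glucan phosphorylase, was read at 133, 191, 112 and 71.1 rpm in M. moricandioides and at 502, 350.5, 1041 and 1147 rpm in M. arvensis (log2 change 2.44 ± 0.34, adjusted p = 1.3e-04). Ma13 and Ma15 were at more than 2-fold of Ma9 and Ma12, and even these lay above every M. moricandioides plant. DPE1, the plastid disproportionating enzyme, had 35.1, 26.4, 25.9 and 24.7 rpm against 99.9, 94.8, 107 and 101 rpm (log2 change 1.74 ± 0.15, adjusted p = 3.8e-06), and SEX4, the glucan phosphatase, 51.5, 28.9, 47.2 and 35.7 rpm against 132, 124, 149 and 147 rpm (log2 change 1.64 ± 0.20, adjusted p = 5.8e-05). Against them, BAM5, a beta-amylase outside the plastid, had 424, 247, 485 and 106 rpm against 3.52, 1.34, 0.894 and 0.603 rpm in M. arvensis. It was among the 12 transcripts with the largest falls (log2 change -7.66 ± 0.78, adjusted p = 1.4e-05, and -8.62 without Ma9), while M. suffruticosa had 142 to 485 rpm. ISA3, a debranching enzyme, fell, with 77.3 to 107 rpm against 36.3 to 51.5 rpm (log2 change -1.12 ± 0.19, adjusted p = 4.1e-04). In starch synthesis 2 of 14 rose, 1 of them in every fit that left out a plant other than Ma12, and 3 fell. The branching enzyme SBE2.1 had 33.9, 18.1, 18.4 and 13.6 rpm against 101, 58, 78.7 and 85.8 rpm (log2 change 1.87 ± 0.29, adjusted p = 2.7e-04) and the starch synthase SS1 134, 133, 126 and 126 rpm against 53.3, 55.5, 43 and 40.2 rpm (log2 change -1.52 ± 0.19, adjusted p = 5.4e-05). Among 18 transcripts of sucrose metabolism none rose and 2 fell, 1 in every fit without a plant but Ma9 and Ma12 and 1 higher without Ma9. The cytosolic invertase CINV1 was the steadier of the 2 (32.7 to 35.3 against 13.1 to 25.7 rpm, log2 change -0.83 ± 0.12, adjusted p = 2.0e-04).

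Transcripts known from Arabidopsis to accumulate in darkness or sugar starvation were higher as a group. Of 19 tested, 12 rose (63.2%) and 1 fell, with a median of 0.87 on the log2 scale, and the summed level was 452 to 536 rpm in M. moricandioides and 1171 to 2122 rpm in M. arvensis. Without Mm15 7 rose, and the single transcript that fell was 2 without Mm8 or Ma9 and none without Mm12, Ma12, Ma13 or Ma15. DRM1 (AT1G28330), a dormancy-associated protein, was read at 25.1, 22.3, 41.4 and 41.3 rpm against 279, 378, 661 and 626 rpm (log2 change 3.71 ± 0.34, adjusted p = 6.3e-06). TPS9, a trehalose-phosphate synthase homologue, had 25.8, 29.6, 27.1 and 23.1 rpm against 126, 133, 183 and 185 rpm (log2 change 2.43 ± 0.13, adjusted p = 3.9e-07), and NAP, a NAC factor of leaf senescence, 0.208, 0.489, 0.435 and 0.807 rpm against 12.7, 16, 22.4 and 22.8 rpm (log2 change 5.06 ± 0.43, adjusted p = 4.0e-06). In each of the 3, every M. arvensis plant stood at more than 4 times the highest M. moricandioides plant, and Ma13 and Ma15 above Ma9 and Ma12. The leaves had been taken in the light and before flowering in both species.

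Abscisic acid, the hormone of drought and of stomatal closure, is sensed by receptors of the PYR/PYL family that block PP2C phosphatases. Of 20 tested transcripts 6 rose (30%) and 4 fell (20%). On the side of synthesis, NCED3, the dioxygenase that sets the rate, had 6.46, 2.53, 5 and 1.55 rpm in M. moricandioides and 33.1, 43.8, 54.5 and 60.3 rpm in M. arvensis (log2 change 3.47 ± 0.36, adjusted p = 1.5e-05). CYP707A2, which degrades the hormone, had 173, 136, 90.9 and 167 rpm against 45.2, 50.1, 29.4 and 27.4 rpm (log2 change -1.97 ± 0.31, adjusted p = 2.9e-04), the opposite direction. The receptor PYL4 had 98.6, 100.5, 72.9 and 101 rpm against 2.03, 6.87, 11.2 and 9.83 rpm (log2 change -3.82 ± 0.31, adjusted p = 3.2e-06). The phosphatases were higher, ABI1 (AT4G26080) with 42.5, 29.6, 36.9 and 31.6 rpm against 195, 172, 213 and 219 rpm (log2 change 2.39 ± 0.16, adjusted p = 8.6e-07) and PP2CA with 79.4, 50.7, 56.1 and 44.2 rpm against 229.8, 185, 205 and 217 rpm (log2 change 1.76 ± 0.21, adjusted p = 3.6e-05). ABF3, a bZIP factor that acts downstream, had 7.08, 8.24, 7.32 and 7.33 rpm against 40.5, 51.7, 41.1 and 34.1 rpm (log2 change 2.38 ± 0.19, adjusted p = 2.9e-06). In all 6 the species were fully apart, and M. suffruticosa lay between them for ABI1 (84.9 to 91.1 rpm), PP2CA (119 to 159.7 rpm), ABF3 (12.2 to 15.7 rpm) and PYL4 (47.3 to 56.6 rpm).

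Proteins of cold and drought protection did not move one way, with 5 of 16 tested higher and 4 lower. LEA14, a late embryogenesis abundant protein, was read at 2.43, 2.12, 2.46 and 2.69 rpm against 149.7, 25.7, 169.9 and 161 rpm (log2 change 5.58 ± 0.57, adjusted p = 1.4e-05). Ma12 was the lowest of its species and still more than 9 times above any M. moricandioides plant. The dehydrin COR47 had 152, 155, 152 and 119.8 rpm against 1019.7, 867, 680.1 and 601 rpm (log2 change 2.39 ± 0.26, adjusted p = 2.6e-05), and ERD7, induced by dehydration, 11.8, 10.5, 11.5 and 13.7 rpm against 97.3, 79, 104 and 119 rpm (log2 change 2.94 ± 0.17, adjusted p = 4.5e-07). In the other direction went KIN1, an antifreeze-like protein, with 244, 204, 339 and 137 rpm against 24.3, 24.4, 10.1 and 7.15 rpm (log2 change -3.85 ± 0.53, adjusted p = 1.1e-04), COR413-PM1, a membrane protein, with 136 to 197 against 29.2 to 46.3 rpm (log2 change -2.19 ± 0.22, adjusted p = 1.4e-05), and GOLS1, which starts raffinose synthesis, with 19.7 to 36.9 against 1.47 to 2.5 rpm (log2 change -4.12 ± 0.32, adjusted p = 2.3e-06). The members that rose were thus LEA14, ERD7 and 3 dehydrins, COR47, XERO1 and LTI30, and those that fell were KIN1, COR413-PM1, GOLS1 and COR15B, a protein of cold-treated plastids.

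Clock transcripts differed in both directions at a harvest about 2 h into the light: 7 of 24 tested rose (29.2%) and 5 fell (20.8%). GRP7 (AT2G21660), an RNA-binding protein under clock control, was read at 350.4, 282, 222 and 312 rpm in M. moricandioides and at 1077, 1034, 2451 and 2309 rpm in M. arvensis (log2 change 2.39 ± 0.24, adjusted p = 1.5e-05). PRR5, a repressor of the central loop, had 17.7, 7.26, 10.2 and 9.69 rpm against 99.6, 64.1, 197 and 194 rpm (log2 change 3.46 ± 0.36, adjusted p = 1.7e-05), and TOC1, an evening component, 4.51, 2.53, 1.88 and 1.48 rpm against 12, 4.99, 34 and 34.1 rpm (log2 change 2.85 ± 0.50, adjusted p = 6.3e-04). Ma13 and Ma15 were the highest plants in all 3, and Ma12 stood just above the top M. moricandioides plant for TOC1. LNK2, a coactivator of morning and afternoon genes, had 374, 323, 136 and 349.8 rpm against 56.2, 122, 114 and 74.9 rpm (log2 change -1.82 ± 0.28, adjusted p = 2.8e-04), its relative LNK3 36.1 to 52.9 against 10.1 to 28.3 rpm (log2 change -1.59 ± 0.31, adjusted p = 0.0013), and CHE, a TCP factor that binds the CCA1 promoter, 49.8 to 70.4 against 13.7 to 29.6 rpm (log2 change -1.41 ± 0.16, adjusted p = 3.5e-05). Each species was sampled at a single time of day, so a shift in phase and a change in level cannot be told apart.

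Photoreceptors and light signalling had 7 of 22 tested transcripts higher (31.8%) and 4 lower (18.2%). PHYD, a phytochrome, had 14.3, 9.54, 13.3 and 7.13 rpm against 55.6, 77.7, 102 and 106 rpm (log2 change 2.79 ± 0.22, adjusted p = 2.7e-06), PHYA, the phytochrome of far-red light, 33.3, 27.2, 24 and 33.1 rpm against 49.1, 76.9, 104 and 109 rpm (log2 change 1.36 ± 0.19, adjusted p = 1.2e-04), and UVR8, the ultraviolet-B receptor, 64, 60.8, 55.8 and 56.2 rpm against 103, 134, 222 and 202 rpm (log2 change 1.32 ± 0.17, adjusted p = 6.0e-05). The blue-light receptors CRY2 (log2 change 1.2 ± 0.21, adjusted p = 5.2e-04) and PHOT1 (log2 change 0.93 ± 0.16, adjusted p = 4.6e-04) rose as well. HYH, a bZIP factor of light-induced genes, fell, with 13.9 to 29.1 rpm against 4.74 to 12 rpm (log2 change -1.63 ± 0.35, adjusted p = 0.0025). None of the 21 tested flowering regulators rose and 5 fell (23.8%), with 1 higher without Ma13. SPL3, a factor that promotes flowering as plants age, had 34.4, 25.8, 35.7 and 43 rpm against 10.9, 12.7, 9.39 and 10.2 rpm (log2 change -1.80 ± 0.24, adjusted p = 1.0e-04), FVE, a chromatin protein of the autonomous pathway, 108, 105, 84.9 and 107 rpm against 25.5, 56.7, 48.4 and 49 rpm (log2 change -1.33 ± 0.16, adjusted p = 5.8e-05), and FLM, a MADS-box repressor, 9.92 to 15.3 against 4.7 to 8.65 rpm (log2 change -1.30 ± 0.20, adjusted p = 2.4e-04). FLC, the vernalization repressor, was not called (60.8 to 108 against 47.4 to 94.1 rpm, adjusted p = 0.28).

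The glucosinolate system showed some of the widest gaps. Enzymes that break glucosinolates down summed to 13516 to 20010.0 rpm in M. moricandioides, 13152 to 18221 rpm in M. suffruticosa and 1728 to 2305 rpm in M. arvensis, and 4 of the 5 tested fell. TGG2 (AT5G25980), a myrosinase, was read at 7938, 5414, 5019.9 and 7132 rpm in M. moricandioides and at 208, 131, 69.7 and 67.2 rpm in M. arvensis (log2 change -5.76 ± 0.55, adjusted p = 8.5e-06, and -6.38 without Ma9). ESP, the epithiospecifier protein that steers the products towards nitriles, had 7143, 4183, 5177 and 5847 rpm against 686, 632, 559 and 530.3 rpm (log2 change -3.31 ± 0.27, adjusted p = 3.2e-06). NIT2, a nitrilase, had 4775, 3804, 4752 and 2687 rpm against 1384, 1040.3, 1065 and 1060.0 rpm (log2 change -1.90 ± 0.25, adjusted p = 9.1e-05), and NSP2, a nitrile specifier, 108 to 227 rpm against 25 to 66.2 rpm (log2 change -1.95 ± 0.31, adjusted p = 3.4e-04). For TGG2 the highest M. arvensis plant stood far under the lowest M. moricandioides plant, and Ma13 and Ma15 had the least. Synthesis of indole glucosinolates moved in both directions, with 4 of 9 tested higher (44.4%), 2 lower (22.2%) and a median of 0.16. Its summed levels overlapped, at 421 to 819.7 rpm in M. moricandioides and 435 to 1004 rpm in M. arvensis. Of its 18 listed genes 9 had no read in any library. MYB51, an activator of this branch, had 3.4, 3.43, 2.46 and 1.01 rpm against 9.7, 19.1, 30.8 and 29.1 rpm (log2 change 2.94 ± 0.36, adjusted p = 4.9e-05), CYP79B3, an entry enzyme, 0.972, 1.14, 1.3 and 2.42 rpm against 7.43, 8.56, 43.6 and 61.7 rpm (log2 change 4.12 ± 0.62, adjusted p = 2.3e-04), and CYP81F2, which hydroxylates the indole ring, 2.94 to 9.85 against 20.4 to 36.8 rpm (log2 change 2.35 ± 0.34, adjusted p = 1.5e-04). IGMT1, which methylates that hydroxyl, fell from 60.1, 59.3, 117 and 55.7 rpm to 1.33, 3.21, 15 and 12.9 rpm (log2 change -3.40 ± 0.57, adjusted p = 4.2e-04). In the aliphatic branch none of 12 rose and 2 fell, 1 of them without Mm8, Mm12, Ma9, Ma13 or Ma15. The glutathione S-transferase GSTF11 was the firmer of the 2, with 41.2 to 68.3 against 8.61 to 25.2 rpm (log2 change -2.11 ± 0.28, adjusted p = 9.7e-05).

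Jasmonates, the hormones of wounding, had 3 higher and 4 lower of 22 tested transcripts. JMT (AT1G19640), which makes methyl jasmonate, was read at 0.347, 0.653, 0 and 1.01 rpm in M. moricandioides and at 90.6, 39.7, 124 and 117 rpm in M. arvensis (log2 change 7.36 ± 0.55, adjusted p = 1.8e-06, and 8.00 without Mm15). VSP2, a storage protein induced by jasmonate, had 3315, 3586, 6515 and 1688 rpm against 296, 9.27, 31 and 25.1 rpm (log2 change -5.27 ± 1.1, adjusted p = 0.0019, and -7.72 without Ma9). Among the M. arvensis plants Ma9 had by far the most VSP2 and was still well under the lowest M. moricandioides plant. HPL1, which sends fatty acid peroxides to volatiles, had 353, 165, 604 and 282 rpm against 107, 51.7, 98.6 and 92.3 rpm (log2 change -2.13 ± 0.39, adjusted p = 8.9e-04), and JAR1, which joins jasmonate to isoleucine, 87.1, 81.4, 87.7 and 65.7 rpm against 25.8, 39, 39.7 and 47.2 rpm (log2 change -1.23 ± 0.15, adjusted p = 4.8e-05). LOX2, the abundant lipoxygenase of this route, spread from 142 to 3017 rpm within M. moricandioides alone and was not called (log2 change -0.96 ± 0.77, adjusted p = 0.32, and 0.07 without Mm12).

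Of 11 tested transcripts of salicylic acid defence 5 rose (45.5%) and 1 fell. PAD3, the last enzyme of camalexin synthesis in Arabidopsis, had 31, 17.3, 26.9 and 17.3 rpm against 169, 153, 152 and 168 rpm (log2 change 2.69 ± 0.32, adjusted p = 4.2e-05). PBS3, which joins isochorismate to glutamate, had 153, 199, 122 and 168 rpm against 46.2, 42.1, 57.1 and 58.9 rpm (log2 change -1.77 ± 0.16, adjusted p = 6.5e-06). Intracellular immune receptors of the NBS-LRR family had the largest share higher of the 29 families examined, with 36 of 68 tested higher (52.9%), 5 lower and a median of 1.22 on the log2 scale. AT1G53350, a CC-NBS-LRR gene, was read at 0.347, 1.06, 0.797 and 0.807 rpm against 27.6, 40.1, 37.6 and 41 rpm (log2 change 5.46 ± 0.37, adjusted p = 8.7e-07), and AT5G48620 of the same class at 0.278, 0.245, 0.217 and 0.0673 rpm against 11.8, 18.6, 17.2 and 16.9 rpm (log2 change 6.14 ± 0.50, adjusted p = 3.2e-06). In M. suffruticosa they had 4.1 to 13.2 and 1.27 to 6.94 rpm. Members of this family are many and alike, and reads were assigned to Arabidopsis sequences, so such values describe reads that match a gene best and not a known Moricandia gene. Receptor kinases at the cell surface went the other way (22 higher and 52 lower of 189), with 11 to 14 higher without Mm8, Ma13 or Ma15. AT1G29720, a leucine-rich repeat kinase, had 243, 119.9, 84.9 and 170.1 rpm against 4.15, 21.5, 7.97 and 6.81 rpm (log2 change -4.07 ± 0.51, adjusted p = 6.1e-05, and -4.76 without Ma12).

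**Figure D3:**
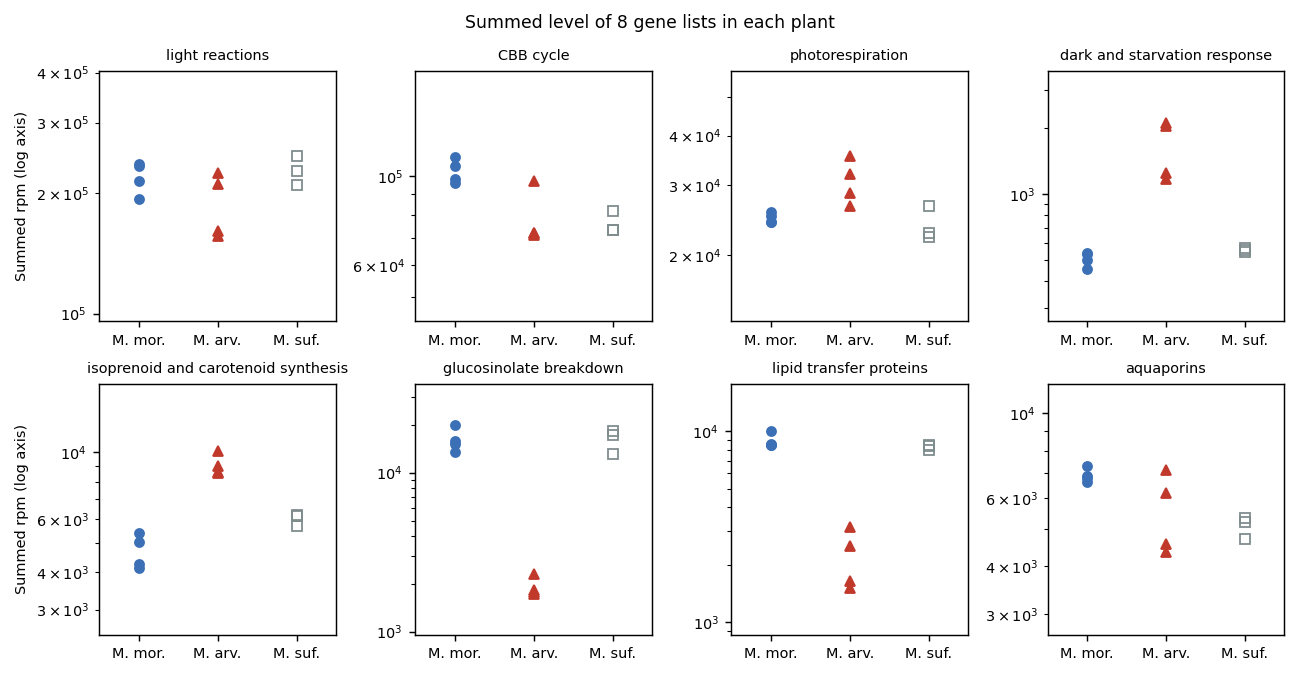
Summed rpm of 8 gene lists in each plant, on log axes, with 1 symbol per plant (M. mor., M. moricandioides; M. arv., M. arvensis; M. suf., M. suffruticosa). The sums of glucosinolate breakdown and lipid transfer proteins are lower in every plant of M. arvensis than in any of M. moricandioides. Those of dark and starvation response and of the isoprenoid and carotenoid list are higher, and light reactions overlap. Of the isoprenoid and carotenoid list 3 of 21 tested members rose, and CCD4, which cleaves carotenoids, takes its largest read share.

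Enzymes that remove superoxide and peroxide had 11 of 28 tested transcripts lower (39.3%) and 4 higher, 2 without Mm6, Mm8, Ma13 or Ma15. Among the superoxide dismutases described here, the copper/zinc forms fell and the iron form rose. Other members of this class are not described. CSD2 (AT2G28190), the plastid copper/zinc form, was read at 413, 627, 503 and 622 rpm in M. moricandioides and at 36.4, 42.8, 54.9 and 45.1 rpm in M. arvensis (log2 change -3.73 ± 0.25, adjusted p = 8.2e-07). CSD1, the cytosolic copper/zinc form, had 378, 394, 345 and 476 rpm against 45.2, 53.9, 136 and 136 rpm (log2 change -2.29 ± 0.32, adjusted p = 1.3e-04), while FSD1, the iron form, had 385, 240.5, 303 and 231 rpm against 868, 661, 626 and 597 rpm (log2 change 1.17 ± 0.24, adjusted p = 0.0019). In Arabidopsis these forms replace each other according to copper supply. That is background, and a list of 14 copper proteins was added for that reason after the values were seen. Of 13 tested, 3 rose (23.1%) and 2 fell (15.4%), near the background of 18.2% and 16.7%. A role of copper supply was not tested. The copper chaperone ATX1 had 53.3, 63.1, 77.1 and 82.9 rpm against 294, 371, 369.5 and 328 rpm (log2 change 2.17 ± 0.20, adjusted p = 6.0e-06), the transporter COPT5 38.8 to 42.8 against 63.3 to 99.3 rpm (log2 change 0.89 ± 0.12, adjusted p = 1.2e-04), and the transporter COPT1 13.8 to 37 against 38.1 to 74.4 rpm (log2 change 1.15 ± 0.26, adjusted p = 0.0031, lost without Mm8 or Ma15). CCS, the chaperone of the copper/zinc dismutases, overlapped (161 to 268 against 234 to 415 rpm, adjusted p = 0.18).

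SAPX, the stromal ascorbate peroxidase, had 118, 110.2, 84.2 and 87.4 rpm against 22.9, 18.5, 24.1 and 27.8 rpm (log2 change -2.21 ± 0.15, adjusted p = 1.1e-06), and PRXQ, a thioredoxin-dependent peroxidase, 323, 353, 322 and 422 rpm against 149.8, 81.7, 84.3 and 76.9 rpm (log2 change -1.91 ± 0.29, adjusted p = 2.3e-04). VTC1 (AT2G39770), which makes the GDP-mannose used for ascorbate, was read at 398, 246, 326 and 313 rpm in M. moricandioides and at 1495, 1399, 1405 and 1371 rpm in M. arvensis (log2 change 2.04 ± 0.20, adjusted p = 9.6e-06). The M. arvensis plants lay close together, and M. suffruticosa (424 to 518 rpm) was nearer to M. moricandioides. The catalase CAT3, which removes hydrogen peroxide in peroxisomes, had 5019 to 7154 rpm against 7717 to 12857 rpm (log2 change 0.65 ± 0.21, adjusted p = 0.022) and missed the limit, which it passed with library totals and in DESeq2.

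Zinc and iron homeostasis had 9 of 24 tested transcripts higher (37.5%) and 5 lower, 3 of them without Mm6 or Mm15. The importers of zinc-starved Arabidopsis roots and shoots rose: ZIP4 had 4.51, 2.45, 2.83 and 2.42 rpm against 22.3, 22.9, 34.2 and 33.2 rpm (log2 change 3.06 ± 0.26, adjusted p = 4.3e-06), and ZIP5 2.22, 1.47, 1.88 and 3.77 rpm against 11, 55, 115 and 109 rpm (log2 change 4.70 ± 0.59, adjusted p = 5.9e-05). HMA2, a zinc pump, had 1.68 to 4.79 against 13.3 to 21.1 rpm (log2 change 2.33 ± 0.31, adjusted p = 9.0e-05), and NAS3, which makes the metal chelator nicotianamine, 1.75 to 5.94 against 12.7 to 13.9 rpm (log2 change 1.79 ± 0.31, adjusted p = 4.8e-04). For ZIP9 the 4 M. moricandioides plants gave 2 reads and the 4 M. arvensis plants 271, a ratio of 153-fold (95% exact counting interval 41.9 to 1269). On the iron side, PYE, a regulator of iron deficiency, fell, with 12.5 to 21.6 rpm against 5.63 to 10.1 rpm (log2 change -1.41 ± 0.19, adjusted p = 9.3e-05), OPT3, which loads iron into the phloem, with 140.4 to 187 against 92.3 to 115 rpm (log2 change -0.74 ± 0.13, adjusted p = 7.1e-04), and BHLH101, another such regulator, gave 142 reads against 1, a ratio of 126-fold (95% exact counting interval 22.2 to 5004), with a call that was lost without Mm6, Mm8 or Mm15 and in the pairwise fit. The members that rose were importers or pumps of zinc (ZIP4, ZIP5, ZIP9, ZIP11 and HMA2) and proteins that make or carry nicotianamine (NAS1, NAS3, YSL1 and YSL3), and those that fell were ZIP10 and 4 of iron, among them the ferritin FER2.

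Phosphate starvation had 5 of 23 higher (3 without Mm8) and 2 lower (1 without Ma13 or Ma15). The purple acid phosphatases PAP26, with 84.9, 99.8, 62.2 and 85.1 rpm against 261, 239, 214 and 209 rpm (log2 change 1.39 ± 0.19, adjusted p = 1.2e-04), and PAP10, with 33.6 to 40.6 against 67.6 to 93.5 rpm (log2 change 1.06 ± 0.19, adjusted p = 8.1e-04), rose. The vacuolar phosphate carrier PHT5;1 fell, with 58.3 to 79.3 rpm against 36.1 to 50.8 rpm (log2 change -0.83 ± 0.12, adjusted p = 1.9e-04). In sulfur assimilation 4 of 26 rose and 6 fell. Those counts depended on single plants, with 2 higher without Mm15 or Ma9, 2 lower without Mm6, Mm12 or Ma15 and 3 lower without Ma12 or Ma13. LSU2, a marker of sulfur shortage, had 21.8, 6.12, 39.4 and 3.36 rpm against 137, 226, 282 and 299 rpm (log2 change 3.55 ± 0.61, adjusted p = 5.2e-04, and 4.35 without Mm12). Its 4 M. moricandioides plants spread more than 10-fold, and all of them lay under the lowest M. arvensis plant. APR2, the reductase that sets the rate, had 769, 277, 736 and 184 rpm against 1926, 1843, 1504 and 1671 rpm (log2 change 1.73 ± 0.41, adjusted p = 0.0041), a call that was lost without Mm8 or Ma9 and in the pairwise fit.

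Lipid transfer proteins summed to 8408 to 10021 rpm in M. moricandioides and 1516 to 3148 rpm in M. arvensis, with 6 of 33 lower (18.2%, near the background of 16.7%, and 12 without Ma9) and 4 higher (1 or 2 without Ma12, Ma13 or Ma15). The sums rest largely on a pair of members. LTP2 (AT2G38530), an abundant epidermal member, was read at 3320.2, 4086, 3890.1 and 3626 rpm against 1375, 1069, 615 and 569.8 rpm (log2 change -2.08 ± 0.34, adjusted p = 4.1e-04), and AT2G10940, a proline-rich protein of the same fold, at 3172, 3563, 2177 and 2779.7 rpm against 297, 205, 84.6 and 74.1 rpm (log2 change -4.14 ± 0.50, adjusted p = 4.9e-05, and -4.79 without Ma9). In both of them Ma13 and Ma15 were the lowest plants, and the species lay far apart. Cuticle and wax had 8 of 23 lower (34.8%, 13 without Ma9) and 1 higher, which was none in every fit without a plant but Ma12. CYP86A4 and GPAT4, enzymes of cutin, had 63.1 to 104 against 22.9 to 47.6 rpm (log2 change -1.51 ± 0.33, adjusted p = 0.0026) and 94.1 to 117 against 37.6 to 55.7 rpm (log2 change -1.34 ± 0.20, adjusted p = 2.3e-04). LACS1, an acyl-CoA synthetase of wax and cutin, had 579, 539, 312 and 409.7 rpm against 265, 162, 185 and 142 rpm (log2 change -1.34 ± 0.27, adjusted p = 0.0017).

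Of 123 tested cell wall enzymes 51 fell (41.5%) and 14 rose (11.4%), with a median of -1.05. XTH4, which cuts and rejoins xyloglucan, had 46, 284, 173 and 96 rpm in M. moricandioides and 6.1, 9.81, 5.44 and 4.91 rpm in M. arvensis (log2 change -4.61 ± 0.50, adjusted p = 2.4e-05). Its relative XTH8 had 3.77 to 22.1 against 0.313 to 0.948 rpm (log2 change -4.62 ± 0.53, adjusted p = 3.3e-05). Among those that rose, the pectin methylesterase inhibitor homologue AT3G47380 had 47.1, 61.5, 50.2 and 39 rpm against 92.1, 376, 693 and 651 rpm (log2 change 2.98 ± 0.41, adjusted p = 1.1e-04), with Ma9 the lowest of its species. Of 49 transcripts annotated as auxin-responsive, a group that includes growth-related SAUR genes, 12 fell (24.5%) and 4 rose. Aquaporins, the water channels, had 5 of 10 lower and none higher. TIP1;2 of the vacuolar membrane had 1509, 1822, 1283 and 1690.3 rpm against 398, 558, 413 and 403 rpm (log2 change -1.94 ± 0.19, adjusted p = 1.2e-05), and TIP2;2 97.4 to 141 against 30.7 to 50.9 rpm (log2 change -1.76 ± 0.26, adjusted p = 1.9e-04). The plasma membrane channels of largest read share, PIP1;2 and PIP2;2, overlapped between species (adjusted p = 0.96 and 0.21).

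Phenylpropanoid and flavonoid synthesis had 8 of 29 lower (27.6%, 13 without Ma9) and 2 higher. MYBL2, a repressor of flavonoid synthesis, had 4.03, 3.67, 2.46 and 5.18 rpm against 37.5, 41, 69.5 and 62 rpm (log2 change 3.62 ± 0.22, adjusted p = 5.5e-07). 4CL3, the ligase of the flavonoid branch, fell, with 10.6 to 19.9 rpm against 0.603 to 2.35 rpm (log2 change -3.47 ± 0.39, adjusted p = 2.8e-05, and -4.11 without Ma9), and UGT78D1, which adds rhamnose to flavonols, with 16.5 to 20.3 against 3.13 to 9.45 rpm (log2 change -2.01 ± 0.31, adjusted p = 2.5e-04). CCR1, the entry enzyme of lignin, was the other member that rose (32.6 to 47.5 against 132 to 193 rpm, log2 change 1.81 ± 0.18, adjusted p = 1.3e-05). Of the vein markers, cellulose synthases of secondary walls fell, CESA4 with 125, 121, 101 and 84.7 rpm against 32.7, 44.3, 38.7 and 40.3 rpm (log2 change -1.58 ± 0.15, adjusted p = 8.8e-06) and CESA8 with 35.1, 33.6, 26.4 and 23.2 rpm against 6.96, 8.65, 6.71 and 8.45 rpm (log2 change -2.05 ± 0.20, adjusted p = 9.6e-06). XCP1, a xylem peptidase, had 21.2, 40.8, 20.1 and 19.6 rpm against 2.03, 3.74, 2.01 and 3.79 rpm (log2 change -3.25 ± 0.50, adjusted p = 2.4e-04). PP2-A1 (AT4G19840), a phloem lectin, had 161, 63.4, 194 and 115 rpm against 1110.1, 1325, 910.4 and 1037 rpm (log2 change 2.92 ± 0.33, adjusted p = 3.1e-05) and was the vein marker that rose, while the phloem sucrose carrier SUC2 overlapped (96.4 to 192 against 169 to 296 rpm, adjusted p = 0.38). Of the 7 vein markers that fell, 5 belong to xylem and secondary walls (CESA4, CESA7, CESA8, XCP1 and XCP2), and the others are FTIP1 of the phloem and the sulfate carrier SULTR2;2.

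Ribosomal proteins were seldom higher, and ubiquitin ligases often were. Of 264 tested ribosomal proteins 48 fell (18.2%) and 14 rose (5.3%), with a median of -0.46. Those of plastids held 13 lower and 2 higher of 39, and those of the cytosol 18 lower and 4 higher of 106, with 31 lower without Mm12. AT5G39850, a ribosomal S4 protein, ran against the rest with 9.45, 16, 22.6 and 13.2 rpm against 119.9, 151, 109 and 115 rpm (log2 change 2.90 ± 0.28, adjusted p = 9.6e-06). Aminoacyl-tRNA synthetases, which charge transfer RNAs, had 13 of 46 lower (28.3%) and 4 higher. AT4G17300 of this family fell from 58.3, 80.2, 78.3 and 70.6 rpm to 27.6, 15.6, 21 and 18.6 rpm (log2 change -1.87 ± 0.24, adjusted p = 6.5e-05). Ubiquitin ligases of the RING and U-box families had 84 of 275 higher (30.5%) and 16 lower (5.82%), and F-box proteins 50 of 157 higher (31.8%) and 24 lower (15.3%). AT3G27330, a RING protein, had 4.1, 3.26, 3.91 and 1.88 rpm against 11, 23.6, 37.4 and 40.3 rpm (log2 change 2.91 ± 0.32, adjusted p = 2.5e-05). Subunits of the proteasome, which degrades what these ligases mark, had 7 higher (4 without Ma13) and 3 lower of 30.

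Pentatricopeptide repeat proteins, which process organelle RNA, had 36 of 218 higher (16.5%) and 8 lower (3.67%). AT1G71460 had 4.1, 6.2, 3.55 and 4.24 rpm against 12.1, 16.5, 12.3 and 13.4 rpm (log2 change 1.48 ± 0.19, adjusted p = 8.3e-05). Respiratory chain subunits had 11 of 53 higher (20.8%, 7 without Ma9) and 2 lower (1 without Mm6, Mm15, Ma12, Ma13 or Ma15). AT1G14450, a subunit of complex I, had 29.9, 33.6, 30.2 and 33.9 rpm against 68.2, 77, 79.4 and 81.5 rpm (log2 change 1.14 ± 0.12, adjusted p = 2.0e-05). Alternative respiration bypasses that chain, and 4 of 13 of its transcripts rose and 1 fell (2 without Ma9). The alternative oxidases AOX1B and AOX1C, near copies that may share reads, had 53.6, 30.9, 49.5 and 25.4 rpm against 98.8, 89.2, 89 and 97.2 rpm (log2 change 1.13 ± 0.23, adjusted p = 0.0017) and 42.9, 28.1, 42.2 and 23.1 rpm against 106, 97.5, 94.8 and 102 rpm (log2 change 1.45 ± 0.21, adjusted p = 1.8e-04). UCP1, an uncoupling protein, had 15.4 to 20.1 against 31.9 to 45.6 rpm (log2 change 1.05 ± 0.21, adjusted p = 0.0013). NDC1, a dehydrogenase shared by plastids and mitochondria, fell, with 86.9 to 125 rpm against 41.4 to 53.5 rpm (log2 change -1.30 ± 0.21, adjusted p = 3.4e-04).

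Chaperones of the heat shock and DNAJ families stood close to the background on the lower side (23 of 152, 15.1%) and on the higher side (27, 17.8%). HSP101, which frees proteins from aggregates, had 3.54, 6.85, 3.98 and 1.88 rpm against 29, 21.9, 37.2 and 42 rpm (log2 change 2.89 ± 0.33, adjusted p = 3.0e-05). AT5G23240, a DNAJ protein, had 13.7, 2.85, 3.33 and 2.35 rpm against 109, 96.3, 307 and 315 rpm (log2 change 5.04 ± 0.73, adjusted p = 1.7e-04, and 5.97 without Mm6). Histones had 11 of 31 higher (35.5%, 7 without Mm6 or Ma13) and 1 lower (2 without Mm6). HIS1-3, a linker histone induced by drought in Arabidopsis, had 1.67, 1.96, 0.507 and 1.82 rpm against 34.9, 51.4, 42.3 and 33.2 rpm (log2 change 4.65 ± 0.33, adjusted p = 1.3e-06), and the core histone AT1G51060 10 to 16.1 against 35 to 40.9 rpm (log2 change 1.36 ± 0.20, adjusted p = 1.8e-04).

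Among transcription factors the NAC family stood out, with 22 of 43 tested higher (51.2%), 1 lower (2 without Mm8 or Mm15) and a median of 1.01 on the log2 scale. NAC3 (AT3G29035) was read at 0.625, 0.489, 0.579 and 0.135 rpm in M. moricandioides and at 14.7, 15.4, 37.8 and 39.9 rpm in M. arvensis (log2 change 5.69 ± 0.41, adjusted p = 1.4e-06), and NAC1 at 5.21, 2.45, 2.9 and 2.15 rpm against 21.4, 26.9, 41.6 and 37.8 rpm (log2 change 3.18 ± 0.27, adjusted p = 4.0e-06). AT1G52880 of this family had 1.21 to 4.45 against 21.5 to 48.5 rpm (log2 change 3.77 ± 0.35, adjusted p = 7.7e-06). Together with NAP, all of these were highest in Ma13 and Ma15, and M. suffruticosa was between the species for NAC1 (6.01 to 10.1 rpm), AT1G52880 (9.56 to 15.1 rpm) and NAP (1.37 to 5.52 rpm). The other families lay nearer to the background: 14 higher and 11 lower of 53 MYB factors, 13 and 14 of 62 bHLH factors, and 5 and 10 of 48 AP2/ERF factors. WRKY factors had 5 higher and 5 lower of 37, with 8 higher without Mm15, 10 higher without Ma9 and 3 lower without Mm6 or Mm8. WRKY25, a factor of heat and defence responses, had 0.764, 0.653, 1.52 and 4.04 rpm against 16.1, 29, 63.1 and 58.8 rpm (log2 change 4.33 ± 0.63, adjusted p = 1.7e-04, and 5.18 without Mm15). MYB3, a repressor of phenylpropanoid genes, had 4.51, 4.73, 5 and 4.64 rpm against 25.2, 28.4, 35.8 and 33.6 rpm (log2 change 2.57 ± 0.14, adjusted p = 3.3e-07).

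Among enzymes of specialized metabolism, P450 oxidases fell more often than they rose. Of 101 tested cytochrome P450 transcripts 34 fell (33.7%) and 17 rose (16.8%), and of 60 UDP-glycosyltransferases 12 rose and 12 fell. AT4G20235, a P450 of family 71, had 38.9, 31, 19.4 and 23.2 rpm against 1.17, 0.981, 1.71 and 1.72 rpm (log2 change -4.44 ± 0.25, adjusted p = 4.5e-07). AT2G34490 and AT2G28850, P450 enzymes of the CYP710A group, which make stigmasterol in Arabidopsis, had 6.05 to 11.3 against 60.7 to 75.9 rpm (log2 change 2.75 ± 0.19, adjusted p = 1.1e-06) and 2.49 to 4.49 against 27.2 to 39.3 rpm (log2 change 3.16 ± 0.18, adjusted p = 4.9e-07). They are close relatives and both were higher in every M. arvensis plant. Secreted peroxidases had 7 higher and 3 lower of 24. AT4G37520 of this family had 8.61, 10.8, 6.01 and 25.5 rpm against 83.1, 88.1, 298 and 192 rpm (log2 change 3.49 ± 0.47, adjusted p = 1.0e-04, and 4.1 without Mm15), and AT3G28200 27.3 to 48.4 against 2.66 to 4.14 rpm (log2 change -3.54 ± 0.21, adjusted p = 4.9e-07). GLIP1, a secreted lipase of defence, had 9.45, 3.75, 5.36 and 4.24 rpm against 46.2, 76, 111 and 86.4 rpm (log2 change 3.64 ± 0.33, adjusted p = 6.1e-06), although GDSL lipases as a family had 8 of 32 lower (5 without Mm15 or Ma13) and 2 higher (4 without Mm12). AT1G15150, a MATE efflux carrier, had 183, 159, 163 and 162 rpm against 7.36, 8.92, 9.69 and 10.3 rpm (log2 change -4.33 ± 0.28, adjusted p = 8.0e-07), in a family with 9 of 27 lower and 4 higher, 2 without Mm8, Mm12, Ma12 or Ma15 and 1 without Mm15.

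A group of 103 transcripts had at least 100 reads over the 4 plants of 1 species and at most 3 over the 4 of the other. Of these 47 were read in M. arvensis and 56 in M. moricandioides, and 12 and 20 of them had no read in the other species. Since reads were matched to Arabidopsis, an absence of reads can come from a transcript that is not made, a copy that was lost or a sequence that matches another gene better, and these cannot be told apart. At 0 reads the fold is a lower bound set by a count of 3 over the group, and ratios on 1 to 3 reads carry a 95% exact interval that covers counting error alone. In M. suffruticosa 37 of the 47 and 40 of the 56 had more than 3 reads. Most were of low abundance, 10 and 9 of them reaching a mean of 10 rpm.

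On the side of M. arvensis stood RPP13, a CC-NBS-LRR resistance gene, with 2 reads in M. moricandioides against 754 in M. arvensis, a ratio of 426-fold (95% exact counting interval 117 to 3520.2). It had 2 reads in M. suffruticosa. NRT2.6, a nitrate transporter, had 3 reads against 867, with 6.03, 13.7, 37.7 and 11.2 rpm in the M. arvensis plants, a ratio of 326-fold (95% exact counting interval 111 to 1585). AT4G29890, annotated as a choline monooxygenase, the enzyme that starts glycine betaine synthesis in other plant families, had 3 reads against 1159, a ratio of 436-fold (95% exact counting interval 149 to 2118). AT5G34930, an arogenate dehydrogenase of tyrosine synthesis, had 1 read against 414, a ratio of 467-fold (95% exact counting interval 83.4 to 18501). AT3G58060, a cation efflux protein, had 0 reads against 316, at least 119-fold higher in M. arvensis, and AT3G46710, another NB-ARC resistance gene, 0 against 220, at least 82.8-fold. WRKY10 had 3 reads against 664, unevenly spread over the M. arvensis plants (2.5, 12.4, 30.6 and 7.07 rpm), a ratio of 249.8-fold (95% exact counting interval 85.1 to 1215).

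On the side of M. moricandioides stood AT4G26555, an FKBP-type isomerase, with 2272 reads against 1, a ratio of 2013-fold (95% exact counting interval 361 to 79539), and 194 reads in M. suffruticosa. RFI2, a RING protein of light and flowering control, had 1553 reads against 3, a ratio of 459-fold (95% exact counting interval 157 to 2226). UGT80B1, a sterol glucosyltransferase, had 1286 against 3, a ratio of 379.8-fold (95% exact counting interval 129.7 to 1844). M. suffruticosa had 823 and 555 reads of these, so that for these the low count was in M. arvensis alone. CKI1, a histidine kinase, had 322 reads against 1, a ratio of 285-fold (95% exact counting interval 50.8 to 11302), and none in M. suffruticosa. TERT, the telomerase subunit, had 460 reads against 1, a ratio of 408-fold (95% exact counting interval 72.8 to 16131), HPA1, an enzyme of histidine synthesis, 209 against 2, a ratio of 92.6-fold (95% exact counting interval 25.3 to 769.5), and AGL46, a MADS-box gene, 525 against 1, a ratio of 465-fold (95% exact counting interval 83.1 to 18406). AT5G52410 and AT1G73120, which carry no description, had 821 and 852 reads in M. moricandioides and none in M. arvensis, at least 242-fold and 252-fold lower.

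M. suffruticosa shares the C3–C4 type of M. arvensis, and its levels show which of the differences set M. arvensis apart from both. These contrasts use the same M. arvensis plants, so they are given side by side and not as separate support. Over 4 M. arvensis and 3 M. suffruticosa plants, the log2 fold change of M. arvensis was -5.75 (adjusted p = 2.7e-05) for TGG2, -3.52 (adjusted p = 7.3e-06) for ESP and -1.93 (adjusted p = 0.0017) for LTP2. M. suffruticosa had 3729 to 9199, 5173 to 8779 and 3253 to 3731 rpm of them, levels near those of M. moricandioides. For VTC1 the same contrast gave 1.54 (adjusted p = 2.9e-04), for PHYD 3.28 (adjusted p = 6.7e-06), for NCED3 3.27 (adjusted p = 1.2e-04) and for DRM1 3.57 (adjusted p = 5.0e-05). JMT was read at 1.09 to 1.84 rpm in M. suffruticosa, with a contrast of 5.86 (adjusted p = 2.4e-05), and LEA14 at 1.55 to 5.1 rpm, with a contrast of 5.07 (adjusted p = 1.3e-04). All of these differed between M. arvensis and both other species. PCK1 and ASP3 had levels in M. suffruticosa near those of M. arvensis. PCK1 was read at 2237 to 2599 rpm, with a contrast of -0.51 (adjusted p = 0.33), and ASP3 at 107 to 116 rpm, with 0.10 (adjusted p = 0.67). AOX1C, at 97.7 to 109.9 rpm with -0.10 (adjusted p = 0.76), and CP12-2, at 1289.9 to 2306 rpm with 0.12 (adjusted p = 0.77), did not pass the limit between the intermediates. An adjusted p above the limit does not show that the 2 intermediates have the same level.

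**Figure D4:**
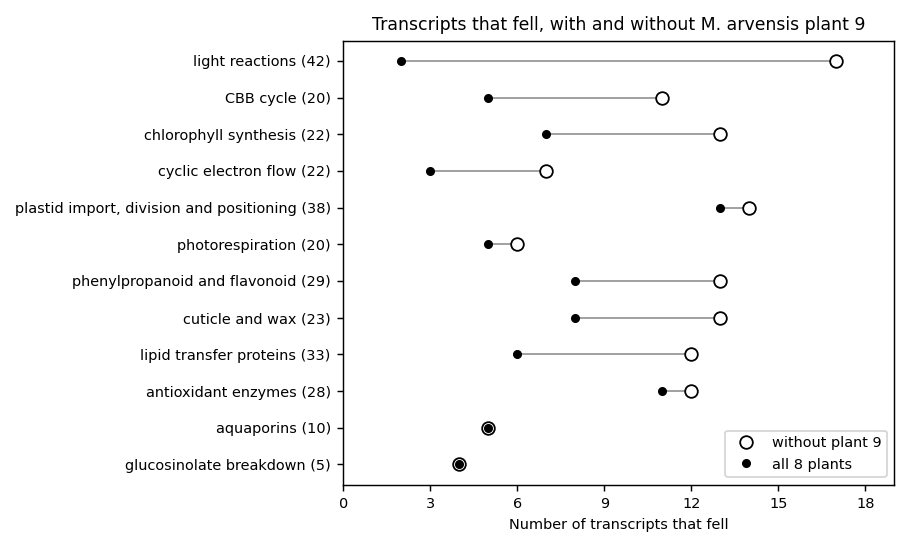
Number of transcripts that fell in 12 gene lists with all 8 plants (filled circles) and without M. arvensis plant 9 (open circles), counts on the horizontal axis. Light reactions go from 2 to 17, chlorophyll synthesis from 7 to 13 and cuticle and wax from 8 to 13, while antioxidant enzymes, aquaporins and glucosinolate breakdown hold nearly the same count.

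Leaving out Ma9 moved the count of lower transcripts in several lists. Without it the lower transcripts went from 2 to 17 in the light reactions, from 5 to 11 in the Calvin–Benson–Bassham cycle, from 7 to 13 in chlorophyll synthesis and, of 22 tested for cyclic electron flow, from 3 to 7. Of 100 transcripts annotated to the peroxisome 8 fell with all plants and 17 without Ma9. Without Ma12, Ma13 or Ma15 the cyclic electron flow count was 1, and 1 rose there without Mm15. Ma9 had the highest summed level of the Calvin–Benson–Bassham list among its species, and the labels give no treatment or batch that sets it apart. Transcripts of no known function, 630 tested, had 133 higher (21.1%) and 111 lower (17.6%), close to the background.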

How the data were processed

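The authors made 1 library per plant from mature leaves, sequenced it as 100-bp single-end reads, assigned each read to its best match in protein space (BLAT) among Arabidopsis coding sequences of TAIR10, and deposited raw read counts per gene. They also deposited rpm, the counts scaled to 1000000 counted reads of the library. Matching across species favours conserved genes, and reads of similar copies can be exchanged between them. The authors' own fold changes and p-values, held in a separate table, were not used, nor was their table of totals; 0 other columns of per-sample values were present.

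Counts of all 11 libraries were filtered (filterByExpr, minimum count 10), scaled by TMM and fitted with edgeR 4.0.16 (R 4.3.3) with 1 term per species, following the study's use of edgeR. M. arvensis was tested against M. moricandioides by the quasi-likelihood test, with Benjamini-Hochberg adjustment over 15570 transcripts and a limit of 0.01. Standard errors were derived from the F statistic. Plants are treated as replicates, so p-values set the species difference against the spread between plants. That spread was estimated over all 11 libraries and shared in part across transcripts. On simulated counts with these means and depths, 50 of 50 transcripts were called at each of a log2 change of 2 and of -2, 23 of 50 at 1, 16 of 50 at -1 and 2 of 15060 unchanged ones. Changes were placed only in transcripts above a minimum level. The simulation gave all transcripts the same spread and treated plants as interchangeable, unlike Ma9, Ma13 and Ma15 in the data. Depth ran from 11216204 to 14865167 counted reads per plant.

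Alternatives were RLE size factors, library totals, other filters on low counts, DESeq2 1.42.0, limma 3.58.1 (voom), a fit of the 8 libraries alone (the pairwise fit), a limit of 0.05, a fold limit, the plant number as a block, Ma13 and Ma15 counted as 1, and leaving out each plant.

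Transcripts were named by a rule: the 12 highest and 12 lowest fold changes among called transcripts with at least 10 rpm in the higher species and plants that did not overlap; those with at least 100 reads in 1 species and at most 3 in the other; up to 4 higher and 4 lower per gene list or family; the 3 most abundant of each list; and the glycine decarboxylase enzymes. The text describes part of them. Members listed by name without a value, and those said to be so, were chosen after their values were seen. The comparison and the gene lists were chosen with earlier results of these data known. Family search patterns were corrected, and the copper list was added, after values were seen. Tables were made with Python 3.11.15, pandas 2.3.3, numpy 2.4.6 and scipy 1.17.1, and plots with matplotlib 3.10.9.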

Additional observations from a re-analysis of the deposited data

Results flagged for a closer look

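In groups of 4 plants, a plant was singled out when its gap to its nearest neighbour took up more of the group's range than Dixon's 95% limit allows. Of 482 groups of values looked at, 39 were singled out. The nominal rate of about 1 in 20 does not hold for the transcripts with very few reads listed last below. A plant that holds all reads of its group is always singled out, so the count is not compared with that rate. In M. arvensis plant 9 the high values were RBCS1A (10465 rpm), PRXQ (149.8 rpm), NIT2 (1384 rpm), VSP2 (296 rpm), GS2 (5729 rpm) and the summed levels of the Calvin–Benson–Bassham cycle (97006 rpm) and of sucrose metabolism (5989 rpm). In M. arvensis plant 12, LEA14 was low (25.7 rpm), and UGT78D1 (9.45 rpm), GOLS1 (2.5 rpm), TIP1;2 (558 rpm) and HMA2 (21.1 rpm) were high.

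In M. moricandioides plant 6, HCAR (24.2 rpm), AT1G15150 (183 rpm), PAP10 (40.6 rpm), AT5G23240 (13.7 rpm) and DPE1 (35.1 rpm) were high and PIP1;2 (1534 rpm) was low. In plant 12 of that species IGMT1 (117 rpm) was high, and FLM (9.92 rpm), FVE (84.9 rpm), PYL4 (72.9 rpm), HYH (13.9 rpm), PYE (12.5 rpm) and the sum of phenylpropanoid and flavonoid synthesis (1085 rpm) were low. Plant 8 had a high value for XCP1 (40.8 rpm) and a low value for AT4G26555 (29.5 rpm), and plant 15 had low values for COR47 (119.8 rpm) and AT2G34490 (6.05 rpm). The remaining cases are transcripts with 1 or 2 reads in all, which fell in a single plant: in M. arvensis AGL46 (0.0745 rpm) and TERT (0.0745 rpm) in plant 13, CKI1 (0.0862 rpm) and AT4G26555 (0.0862 rpm) in plant 15, and BHLH101 (0.0892 rpm) and HPA1 (0.178 rpm) in plant 12, and in M. moricandioides RPP13 (0.139 rpm) in plant 6 and ZIP9 (0.145 rpm), AT5G34930 (0.0724 rpm) and PCK2 (0.0724 rpm) in plant 12.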

How the results depend on the processing

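Of the 184 named transcripts that were called, 178 kept their call in all 8 fits that left out a plant and 182 in both DESeq2 and limma-voom (those lost in limma-voom were PPDK and COR15B). None changed direction in any alternative run, and 15 fell short of a fold limit of 1 on the log2 scale, by construction. The counts over all transcripts stayed within 1.5-fold under every alternative but the block: leaving out a plant gave 2178 to 2677 higher, 2138 to 2736 lower and 4418 to 5413 in either direction, DESeq2 gave 6453, limma-voom 5397, library totals 5139 and the pairwise fit 4668. With Ma13 and Ma15 counted as 1, 2318 were higher, 2177 lower and 4495 in either direction. The plant numbers 12 and 15 occur in both species. Deviations from the species means had correlations of 0.013 and 0.005 between plants of the same number. So few pairs cannot show whether plants of the same number share anything beyond it. Numbers shared with M. suffruticosa were not checked. With the plant number as a block, which leaves 2 residual degrees of freedom, 383 were higher, 417 lower and 800 in either direction, and 83 of the named transcripts lost their call. Of the 138 counts of members per group and direction, 24 moved by more than 1.5-fold without Ma9 and 27 without Ma13. With Ma13 and Ma15 counted as 1, 26 moved, against 19 in DESeq2, 19 with library totals and 2 in limma-voom. The cause was not tested. Depth limits transcripts with few reads, and the simulation placed no changes in these. At a log2 change of 1, 23 of 50 simulated increases and 16 of 50 decreases were called among transcripts above a minimum level.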
